A study of Mus musculus with 9 samples.

Results

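Reissner's membrane is the thin sheet that separates the endolymph from the perilymph of the cochlea. Transcripts of the epidermal growth factor (EGF) receptor system were followed in it on 9 oligonucleotide arrays. The set held 6 genes: the ligands Hbegf, Tgfa, Ereg and Areg, the receptor Egfr and the feedback inhibitor Errfi1. All probe sets annotated to these genes were taken, whatever their signal. They came to 15 of the 45101 probe sets and to 5 of the 18193 genes with 1 symbol. No probe set matched Areg, the amphiregulin gene, so it has no value here.

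The membranes came from adult mice and were dissected free-hand. There were 3 groups of 3 arrays, lettered A to C: explants kept 24 h with the synthetic glucocorticoid dexamethasone at 100 nM (dexamethasone), explants kept 24 h without it (incubated), and tissue extracted at once (fresh). For arrays B and C the dose is labelled in mM, which differs from the nM of array A and of the study's design. No strain, sex or genotype was stated. Membranes were pooled and each biological sample was hybridized to 3 chips, so the p-values cover the spread between chips only, and that spread may be technical.

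EGF receptor ligands are made as membrane-anchored precursors and are shed by metalloproteinases. They make the receptor dimerise and phosphorylate itself, which drives the Ras and ERK kinase cascade, and in epithelia this signalling is known for its part in wound closure. Errfi1, also called MIG6, binds the kinase domain of the receptor and blocks it. Its transcript is known to be raised by growth factors, by stress and by glucocorticoids.

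Signals were linear and scaled to the same trimmed mean of 500 on every array, and 36.0% to 39.4% of probe sets reached a signal of 200, used as the working floor. Pearson's r of log2 signals between arrays of a group was 0.984 to 0.989. Each change is given on the log2 scale, with its SE, from 1 limma fit over 18913 probe sets that reached 200 on at least 3 arrays, with 3 arrays per group and Benjamini-Hochberg adjusted p-values. Of 8 known glucocorticoid response genes, 7 rose and 1 fell with dexamethasone against incubated, the one that fell being Sgk1 (-0.15, adjusted p = 0.028). Fkbp5, a chaperone of the glucocorticoid receptor, rose with dexamethasone by 1.99 ± 0.10 (adjusted p = 2.30e-08). The clock gene Per1 rose by 1.05 ± 0.095 (adjusted p = 2.55e-06), and Tsc22d3, the GILZ gene, rose at least 2.17-fold (adjusted p = 1.16e-07). None of the 11 markers of simple epithelium lay under 200 on all arrays. Of the mesothelial markers, Upk3b, Wt1 and Lrrn4 stayed under 200 on all 9 arrays, and Msln averaged 941 in dexamethasone, 1203 in incubated and 45.1 in fresh arrays, at least 6.01-fold higher in incubated than in fresh arrays (adjusted p = 3.32e-12).

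Over the set, 8 of the 15 probe sets passed the filter and represented 4 genes, Hbegf, Tgfa, Egfr and Errfi1. Dexamethasone against incubated gave 3 probe sets higher, 0 lower and 5 that did not pass the test, against a background in which 52.5% of all tested probe sets were called, 27.1% as higher and 25.5% as lower. Incubated against fresh gave 3 higher, 0 lower and 5 not called, where 75.1% of all tested probe sets were called, 35.0% as higher and 40.1% as lower. The 3 rises in that comparison were both Hbegf probe sets and 1 of Egfr. The median change of the 8 probe sets was 0.22 with dexamethasone against incubated, beside 0.01 over all tested probe sets, and -0.013 for incubated against fresh, beside -0.05. Dexamethasone against fresh gave 4 higher, 0 lower and 4 not called, where 76.2% of all tested probe sets were called, 37.8% as higher and 38.4% as lower. The comparisons share arrays.

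**Figure D1:**
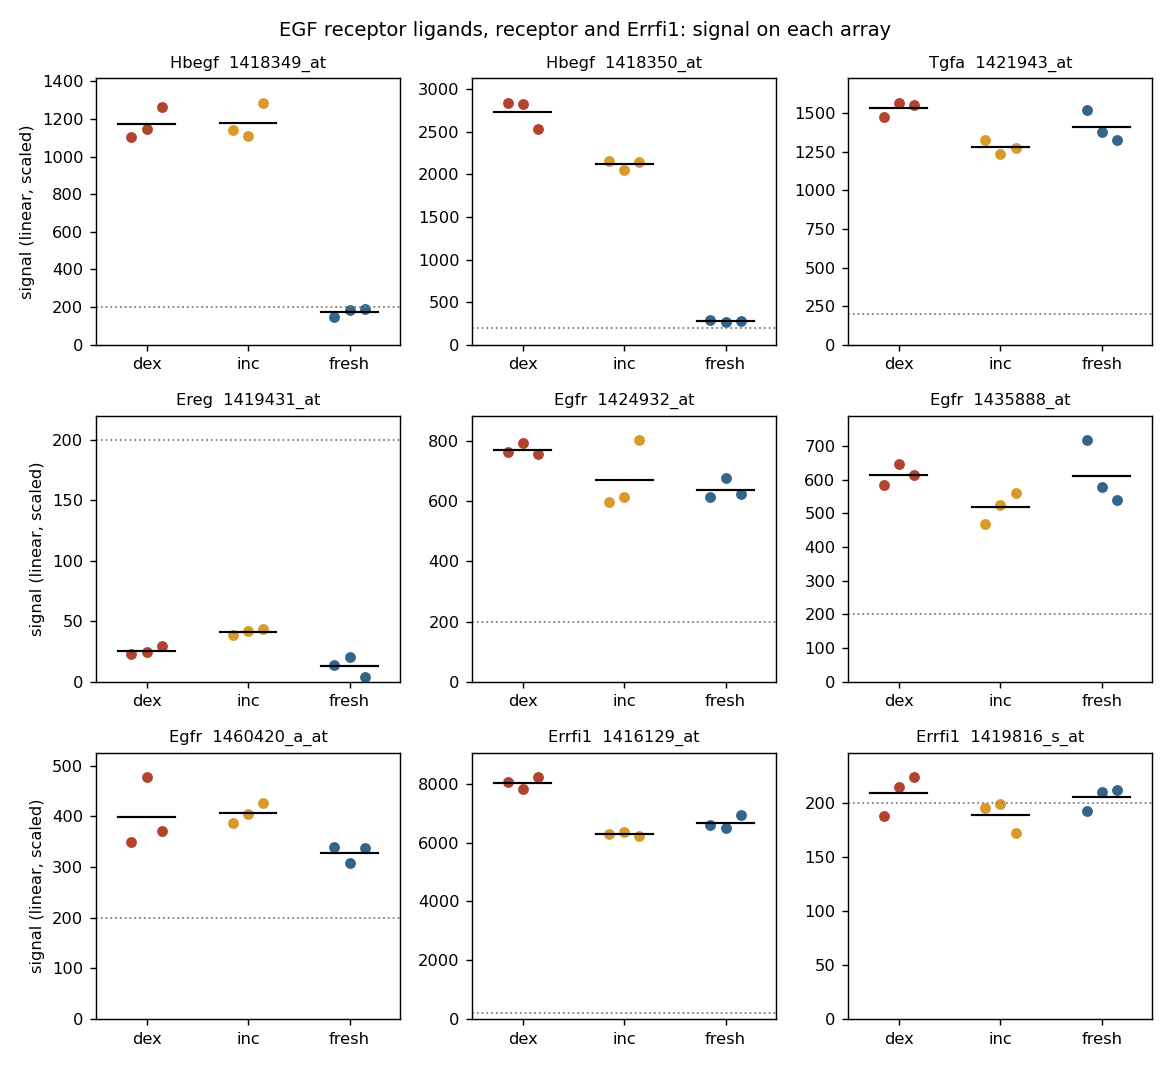
Linear scaled signal on each array for the 8 tested probe sets and for Ereg, with dexamethasone (dex), incubated (inc) and fresh arrays from left to right, bars at group means and a dotted line at 200. Hbegf stands apart by its low fresh arrays, and Ereg lies under 200 throughout. Dexamethasone arrays lie above all incubated arrays for Errfi1 1416129_at, Tgfa, Hbegf 1418350_at and Egfr 1435888_at.

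Hbegf, which encodes heparin-binding EGF-like growth factor, had the largest change of the set. Probe set 1418350_at read 2842.4, 2828.4 and 2527.0 on dexamethasone arrays A, B and C, 2153.1, 2055.1 and 2139.6 on incubated arrays, and 286.5, 264.1 and 281.8 on fresh arrays. The 3 groups did not overlap, and fresh tissue was lowest. Hbegf rose by 2.80 ± 0.063 in incubated against fresh arrays (adjusted p = 1.40e-12), and 0.402% of all tested probe sets had a change at least as high. With dexamethasone, Hbegf rose by a further 0.36 ± 0.063 over incubated arrays (adjusted p = 4.10e-04), a 1.29-fold difference reached or exceeded by 18.6% of tested probe sets.

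The second Hbegf probe set showed the rise in culture but no further rise with the steroid. Probe set 1418349_at read 1103.7, 1149.2 and 1261.9 on dexamethasone arrays, 1143.3, 1109.1 and 1287.1 on incubated arrays, and 148.6, 182.5 and 191.2 on fresh arrays. The dexamethasone and incubated arrays overlapped, and all 3 fresh arrays lay under the floor of 200. Incubated arrays were at least 5.89-fold higher than fresh arrays (adjusted p = 1.11e-10). The change of this probe set of Hbegf with dexamethasone against incubated was -0.009 ± 0.095 (adjusted p = 0.945), with a 95% interval of -0.22 to 0.20. That interval lies below the 0.36 of the other probe set. The signal of the first over the second was 2.58, 2.46 and 2.00 on dexamethasone arrays, 1.88, 1.85 and 1.66 on incubated arrays, and 1.93, 1.45 and 1.47 on fresh arrays. This ratio was 1.30-fold higher in dexamethasone than in incubated arrays, without overlap (two-sided exact permutation test, p = 0.1, the smallest that 3 against 3 arrays allow).

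Macrophages also make Hbegf, and their markers moved in both directions between groups. The summed signal of 14 macrophage markers was 10244 to 10416 in dexamethasone arrays, 9490 to 9732 in incubated arrays and 8317 to 9644 in fresh arrays. The sums of incubated and fresh arrays overlapped. Of the 11 tested, 6 rose and 2 fell in incubated against fresh arrays, near the 76.8% of all genes called. The 2 that fell were Csf1r (-1.11 ± 0.064) and Ptprc (-1.07 ± 0.10), while Cd68 rose at least 8.22-fold. Aif1 and Cd163 lay under 200 on all 9 arrays. Simple epithelial markers summed to 95456 to 100703 in dexamethasone arrays, 81396 to 84949 in incubated arrays and 40061 to 41685 in fresh arrays. Of 11 tested, 9 rose and 1 fell in incubated against fresh arrays, and 8 rose and 1 fell with dexamethasone against incubated. Over all genes, 36.0% were called higher and 40.7% lower in the first comparison, and 22.3% and 28.7% in the second. The part of either cell type in the change of Hbegf was not tested, and in such bulk tissue a change in the share of a cell type and a change in RNA per cell cannot be told apart.

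Tgfa, the gene of transforming growth factor alpha, was called between dexamethasone and incubated arrays. Probe set 1421943_at read 1478.4, 1569.1 and 1556.0 on dexamethasone arrays, 1327.7, 1238.5 and 1275.3 on incubated arrays, and 1523.5, 1376.6 and 1323.8 on fresh arrays. All dexamethasone arrays lay above all incubated arrays, while fresh arrays overlapped with both. Tgfa rose by 0.26 ± 0.063 with dexamethasone against incubated (adjusted p = 0.00435), a 1.19-fold difference. The change in Tgfa between incubated and fresh arrays was -0.13 ± 0.063 (adjusted p = 0.0723), with a 95% interval of -0.27 to 0.00. It passed the test as a fall without fresh array C (-0.17, adjusted p = 0.0341). For dexamethasone against fresh the change in Tgfa was 0.12 ± 0.063 (adjusted p = 0.0893). It passed the test with median centring (0.16, adjusted p = 0.0304), with quantile normalization (0.15, adjusted p = 0.0493) and without fresh array A (0.18, adjusted p = 0.021). The other Tgfa probe sets, 1421942_s_at and 1450421_at, stayed between 13.3 and 102.0 on all 9 arrays and were not tested.

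Ereg, which encodes epiregulin, lay far under the floor on every array. Its probe set 1419431_at read 22.6, 24.6 and 29.4 on dexamethasone arrays, 38.6, 41.9 and 43.4 on incubated arrays, and 14.2, 20.2 and 4.3 on fresh arrays. The 3 groups did not overlap, with incubated arrays highest, but no fold is given because all 9 signals lay under 200. Without a filter, the adjusted p of Ereg was 0.00605 for incubated against fresh and 0.203 for dexamethasone against incubated.

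Egfr, the receptor gene, had 7 probe sets, of which 3 passed the filter. The one with the highest signal, 1424932_at, read 764.2, 794.0 and 754.4 on dexamethasone arrays, 595.9, 614.1 and 803.2 on incubated arrays, and 613.9, 674.7 and 624.7 on fresh arrays. Incubated array C was higher than every other array of the 9. The change of Egfr 1424932_at with dexamethasone against incubated was 0.20 ± 0.099 (adjusted p = 0.103), with a 95% interval of -0.01 to 0.42. Without incubated array C the change was 0.33 and passed the test (adjusted p = 0.00401). Against fresh arrays, Egfr 1424932_at was higher with dexamethasone by 0.26 ± 0.099 (adjusted p = 0.0286), and lost that call without any 1 of dexamethasone arrays A and B and fresh arrays A and C, and with hybridization-control scaling (0.12, adjusted p = 0.378). Incubated against fresh gave 0.059 ± 0.099 (adjusted p = 0.603), with a 95% interval of -0.16 to 0.27.

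The second probe set, 1435888_at, read 582.9, 647.6 and 613.0 on dexamethasone arrays, 470.0, 524.8 and 561.7 on incubated arrays, and 718.7, 579.0 and 539.6 on fresh arrays. Dexamethasone arrays lay above incubated arrays without overlap, yet the change of Egfr there, 0.23 ± 0.10, did not pass the test (adjusted p = 0.0773) and passed it when the fresh arrays were left out of the fit. For incubated against fresh it was -0.22 ± 0.10 (adjusted p = 0.0719) and passed the test as a fall without fresh array C (-0.30) or incubated array C (-0.28).

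The third, 1460420_a_at, read 349.4, 478.0 and 371.7 on dexamethasone arrays, 387.3, 405.5 and 426.8 on incubated arrays, and 338.6, 307.1 and 336.8 on fresh arrays. Every incubated array lay above every fresh array, and Egfr rose by this probe set by 0.29 ± 0.11 (adjusted p = 0.0313). That call was lost without incubated array B (0.29), incubated array C (0.25) or fresh array B (0.25). It was also lost when no filter was used (0.29, adjusted p = 0.051). With dexamethasone against incubated the change of this probe set of Egfr was -0.033 ± 0.11 (adjusted p = 0.82). For dexamethasone against fresh it was 0.25 ± 0.11 (adjusted p = 0.0517). That change passed the test with quantile normalization (0.36, adjusted p = 0.00958) and with median centring (0.29, adjusted p = 0.0276). It also passed without an intensity trend (0.25, adjusted p = 0.048) or without dexamethasone array A (0.34, adjusted p = 0.0203). The remaining 4 Egfr probe sets lay between 1.7 and 169.8 on all arrays. One of them, 1432647_at, read 119.6, 140.6 and 169.8 on dexamethasone arrays, above the 88.8, 57.2 and 95.2 on incubated arrays, all under 200.

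Errfi1, the feedback inhibitor, had the highest signal of the set and rose with dexamethasone. Probe set 1416129_at read 8048.3, 7833.8 and 8231.9 on dexamethasone arrays, 6294.1, 6357.6 and 6220.0 on incubated arrays, and 6598.2, 6508.0 and 6923.1 on fresh arrays. Dexamethasone arrays were highest and incubated arrays lowest, with no overlap between any groups. Errfi1 rose by 0.35 ± 0.043 in dexamethasone against incubated arrays (adjusted p = 2.63e-05), a 1.28-fold difference with a 95% interval of 0.26 to 0.44 on the log2 scale. Of all tested probe sets, 19.1% had a change at least as high. It was also higher by 0.27 ± 0.043 in dexamethasone against fresh arrays (adjusted p = 8.63e-05), a call lost with hybridization-control scaling (0.11, adjusted p = 0.128). Incubated against fresh gave -0.085 ± 0.043 (adjusted p = 0.0885), with a 95% interval of -0.18 to 0.01. With quantile normalization, Errfi1 was called lower there (-0.20, adjusted p = 4.73e-04). The epithelial marker sums above were likewise highest with dexamethasone. Of the 11 markers, 8 rose and Epcam fell against incubated arrays (-0.31 ± 0.042, adjusted p = 6.31e-05). The part of the epithelial share in the rise of Errfi1 was not tested.

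The second Errfi1 probe set, 1419816_s_at, whose name marks it as one that may hybridize to several transcripts, lay close to the floor. It read 188.4, 215.3 and 224.3 on dexamethasone arrays, 195.8, 198.8 and 172.5 on incubated arrays, and 193.0, 210.7 and 212.2 on fresh arrays. All groups overlapped, and the change of this Errfi1 probe set with dexamethasone against incubated was 0.13 ± 0.11 (adjusted p = 0.361).

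**Figure D2:**
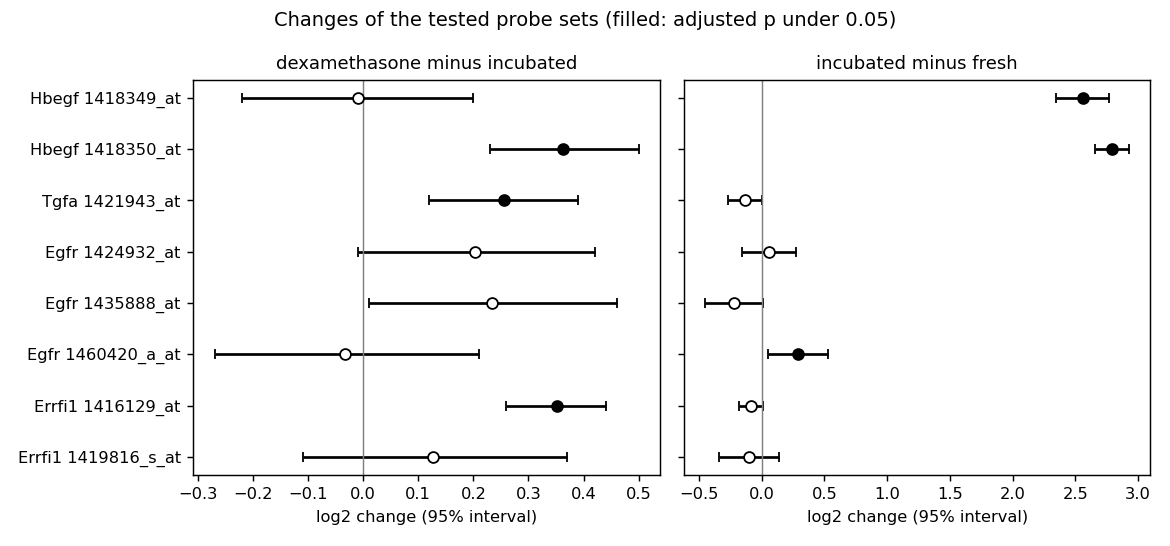
Log2 changes with 95% intervals for the 8 tested probe sets, with dexamethasone minus incubated on the left and incubated minus fresh on the right, on different scales. Filled points passed the test. Both Hbegf points lie beyond 2.5 on the right, and Errfi1 1416129_at, Tgfa and 1 of the Hbegf probe sets are filled on the left.

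Errfi1 and Tgfa rose together with dexamethasone, so the bases before their annotated starts are shown. Windows of Hbegf, which also rose by 1 of its probe sets, and of Ereg are not shown here. The sequences are from RefSeq, build GRCm38.p6, all on the + strand, and each is the 250 bases that end just before a start. Errfi1 has 2 starts in that table, at chr4:150853546-150853795 for the window before start 1 and chr4:150854820-150855069 for start 2, and the window of Tgfa is chr6:86194972-86195221. Capitals mark matches to a cyclic AMP response element (TGACGTCA) or a TATA box (TATAAA).
Errfi1 start 1: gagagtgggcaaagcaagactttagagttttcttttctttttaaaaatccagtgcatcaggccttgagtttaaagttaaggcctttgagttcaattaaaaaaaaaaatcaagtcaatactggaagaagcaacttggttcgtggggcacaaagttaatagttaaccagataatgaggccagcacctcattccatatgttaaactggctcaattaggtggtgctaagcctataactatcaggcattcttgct
Errfi1 start 2: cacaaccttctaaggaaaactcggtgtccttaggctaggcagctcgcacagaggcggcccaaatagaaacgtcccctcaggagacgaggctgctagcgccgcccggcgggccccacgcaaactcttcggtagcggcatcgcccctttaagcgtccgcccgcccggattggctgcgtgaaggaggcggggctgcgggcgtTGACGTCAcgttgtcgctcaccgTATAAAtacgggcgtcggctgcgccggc
Tgfa start 1: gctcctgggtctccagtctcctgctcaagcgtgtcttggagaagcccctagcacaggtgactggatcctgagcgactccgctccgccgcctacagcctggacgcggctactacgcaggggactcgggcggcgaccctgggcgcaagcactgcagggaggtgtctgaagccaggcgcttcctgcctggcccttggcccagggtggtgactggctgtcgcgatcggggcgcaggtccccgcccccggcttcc
Both strands were searched for these motifs, for the AP-1 site TGANTCA, for the glucocorticoid response element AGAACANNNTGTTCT and for its half-site AGAACA, which the full element contains. Errfi1 start 2 held the cyclic AMP element 51 to 44 bases and the TATA box 28 to 23 bases before the start. Errfi1 start 1 and Tgfa held none of the 5 motifs, and neither did the 1 window of Egfr. The window of Areg, the ligand with no probe set, held the same pair, at 61 to 54 and 31 to 26 bases before its start. Of 32851 windows of this length in the table, 1.55% held the cyclic AMP element, 12.4% the TATA box, 6.75% the AP-1 site, 16.1% the glucocorticoid half-site and 0.00913% the full glucocorticoid element. A match is a match of letters only, and the absence of one says nothing beyond the window.

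How the arrays were scaled decided the sign of the smaller changes. Scaling each array to its 9 hybridization controls, which are spiked in before hybridization, moved the median change of all tested probe sets with dexamethasone against incubated to -0.45, beside 0.01 with the deposited scaling. The share of called probe sets that were higher became 9.13%, beside 51.5%. Under it Errfi1 1416129_at stood at -0.14 and Hbegf 1418350_at at -0.12, neither called. The second probe sets were called lower, Errfi1 1419816_s_at at -0.30 (adjusted p = 0.0456) and Hbegf 1418349_at at -0.49 (adjusted p = 8.45e-04). Tgfa was called lower (-0.23, adjusted p = 0.022), as was Egfr 1424932_at (-0.27, adjusted p = 0.044). Errfi1 1416129_at, Hbegf 1418350_at and Tgfa still lay above the median of all probe sets, by 0.32, 0.33 and 0.23. Relative to that median, Errfi1 1419816_s_at stood at 0.16 and Hbegf 1418349_at at -0.03. The same scaling moved the median for incubated against fresh to 0.27, beside -0.05, and Hbegf still rose, by 3.12. There Errfi1 (0.25, adjusted p = 0.0023) and Tgfa (0.20, adjusted p = 0.0413) were called higher, though both lay below the shifted median, and Egfr 1424932_at was called higher (0.38, adjusted p = 0.00649). The rises of Errfi1 1416129_at, Tgfa and Hbegf 1418350_at with dexamethasone are therefore rises relative to the rest of the array, with the opposite sign under this scaling.

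**Figure D3:**
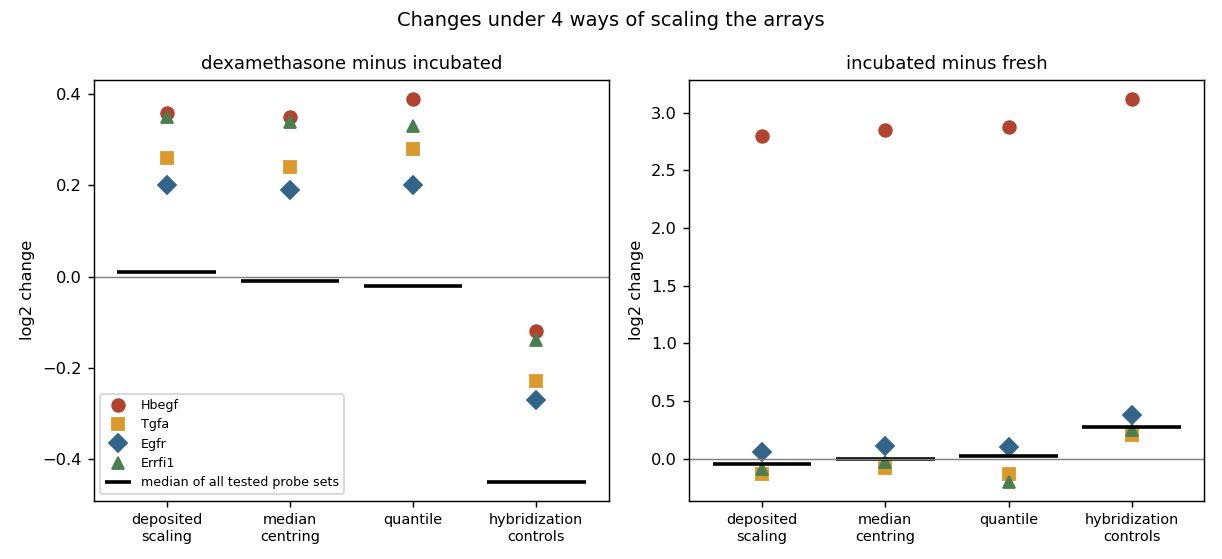
Log2 change of the representative probe set of Hbegf, Tgfa, Egfr and Errfi1 under the deposited scaling, median centring, quantile normalization and scaling to hybridization controls, with dexamethasone minus incubated on the left and incubated minus fresh on the right. Black bars mark the median of all tested probe sets, which hybridization-control scaling moved to -0.45 on the left and 0.27 on the right.

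Egf, another ligand of the receptor, moved opposite to Hbegf in culture. Of 10 other ligand and receptor genes of the family on the array, 4 passed the filter, and Epgn, Nrg1, Nrg2, Nrg3, Nrg4 and Erbb4 did not. Egf, the first ligand of the family to be isolated, read 705.3, 680.2 and 737.1 on dexamethasone arrays, 863.9, 834.3 and 842.4 on incubated arrays, and 4924.0, 4751.3 and 4871.4 on fresh arrays. Its fresh arrays lay far above all cultured ones. Egf fell by 2.47 ± 0.052 in incubated against fresh arrays (adjusted p = 9.17e-13) and fell by a further 0.25 ± 0.052 with dexamethasone against incubated (adjusted p = 0.00159). Markers of adjoining cells fell alongside it in incubated against fresh arrays, with all 8 fibrocyte markers, all 8 neuron markers and 4 of 4 tested strial marginal cell markers lower. Over all genes, 40.7% were called lower there. The fibrocyte marker Otor, the strial marker Kcne1 and every neuron marker except Uchl1 reached 200 on fresh arrays alone. They passed the filter through that group, so their tests are conditioned on the group where they were high. The strial markers summed to 4393 to 4580 in dexamethasone arrays, 4699 to 4834 in incubated arrays and 22935 to 24042 in fresh arrays, and their part in the fall of Egf was not tested.

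Btc, the betacellulin gene, read 123.3, 122.0 and 128.3 on dexamethasone arrays, 248.7, 222.5 and 246.7 on incubated arrays, and 162.4, 175.4 and 127.8 on fresh arrays. Only incubated arrays reached the floor, and Btc passed the filter through them alone, so its tests are conditioned on the group where it was high. Btc was at least 1.19-fold lower in dexamethasone than in incubated arrays (adjusted p = 2.01e-04) and at least 1.19-fold higher in incubated than in fresh arrays (adjusted p = 0.00162). Erbb3, a receptor of neuregulins, fell by 0.21 ± 0.052 with dexamethasone against incubated (adjusted p = 0.00445). Erbb3 fell by 0.30 ± 0.052 in incubated against fresh arrays (adjusted p = 1.84e-04), a fall that turned to 0.04 with hybridization-control scaling. Erbb2, the partner receptor with no ligand of its own, gave 0.12 (adjusted p = 0.409) with dexamethasone against incubated and -0.07 (adjusted p = 0.618) for incubated against fresh.

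**Figure D4:**
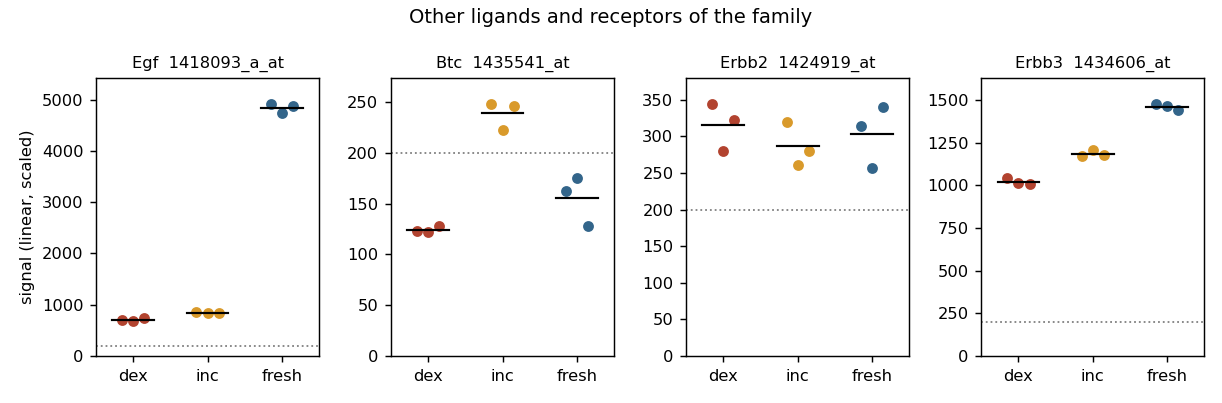
Linear scaled signal on each array for Egf, Btc, Erbb2 and Erbb3, with dexamethasone (dex), incubated (inc) and fresh arrays from left to right, bars at group means and a dotted line at 200. Egf and Erbb3 are highest in fresh arrays, Btc is highest in incubated arrays and Erbb2 overlaps in all groups.

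The genes that release or flank the ligands were mostly higher in culture. Of 11 tested genes of ligand shedding and surface partners, 7 rose and 2 fell in incubated against fresh arrays, with a median of 0.27 beside -0.039 over all 10242 genes, of which 76.8% were called, 36.0% as higher and 40.7% as lower. The metalloproteinase gene Adam9 rose by 0.98 ± 0.043 (adjusted p = 4.75e-10). Rhbdf1, which encodes an inactive rhomboid protein that carries the sheddase ADAM17 to the surface, rose by 1.23 ± 0.069 (adjusted p = 5.31e-09). Cd9, the gene of a tetraspanin that binds the Hbegf precursor, rose by 0.74 ± 0.052 (adjusted p = 3.73e-08), and the protease gene Bace2 fell at least 3.43-fold (adjusted p = 1.69e-08).

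With dexamethasone against incubated, 2 of these 11 rose and 2 fell, with a median of 0.05 beside -0.03 over all genes, of which 50.9% were called, 22.3% as higher and 28.7% as lower. Adam17, the main sheddase of EGF receptor ligands, fell by 0.49 ± 0.081 (adjusted p = 2.90e-04), with a signal of 638 ± 48.9 in dexamethasone arrays and 906 ± 64.8 in incubated arrays (SD, n = 3). Cd9 fell by 0.38 ± 0.052 (adjusted p = 5.76e-05). The metalloproteinase gene Adam8 rose by 0.68 ± 0.092 (adjusted p = 6.26e-05) and Rhbdf1 rose by 0.20 ± 0.069 (adjusted p = 0.0275). With hybridization-control scaling, 0 of the 11 rose and 10 fell, and Rhbdf1 stood at -0.28, while the list's median lay 0.02 above that of all probe sets.

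Most transcripts known to be raised by ERK signalling were higher in culture. Hbegf and Tgfa are themselves in this list. Among all genes, 76.8% were called for incubated against fresh, 36.0% as higher and 40.7% as lower. Of 23 tested transcripts of the list, 20 rose and 1 fell in incubated against fresh arrays, with a median of 1.75. They included the AP-1 subunit genes Fosl1 (at least 8.58-fold higher) and Jun (2.23 ± 0.060), the early response gene Ier3 (2.60 ± 0.052) and the growth regulator Myc (at least 3.93-fold higher), with adjusted p at most 6.65e-12. With dexamethasone against incubated, 14 rose and 4 fell, with a median of 0.35. Over all genes, 50.9% were called there, 22.3% as higher and 28.7% as lower. Hybridization-control scaling gave 4 of the list higher and 11 lower and a median of -0.14, which lay 0.31 above that of all probe sets. Jun rose by 0.72 ± 0.060 (adjusted p = 1.25e-06), the transcription factor gene Srf by 0.87 ± 0.065 (adjusted p = 5.10e-07) and Klf6 by 0.74 ± 0.067 (adjusted p = 2.48e-06). Phlda1, named for its pleckstrin homology-like domain, fell by 0.80 ± 0.065 (adjusted p = 9.94e-07).

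Other feedback inhibitors moved in both directions. Of 21 tested, 10 rose and 6 fell in incubated against fresh arrays (median 0.14), near the 76.8% of all genes called. With dexamethasone against incubated, 9 rose and 6 fell (median 0.10), where 50.9% of all genes were called. In culture, the ERK phosphatase genes Dusp5 (at least 11.3-fold higher) and Dusp4 (1.73 ± 0.096), the cytokine inhibitor Socs3 (1.39 ± 0.096) and the secreted glycoprotein gene Lgals3bp (1.36 ± 0.066) rose, with adjusted p at most 3.44e-08. With dexamethasone, Dusp5 rose by a further 1.12 ± 0.13 (adjusted p = 1.89e-05) and Dusp1, a phosphatase known as a glucocorticoid target, rose by 0.66 ± 0.062 (adjusted p = 2.98e-06). Dusp4 fell by 0.71 ± 0.096 (adjusted p = 5.85e-05) and Lgals3bp by 0.67 ± 0.066 (adjusted p = 4.97e-06). With hybridization-control scaling, 1 of the 21 rose and 14 fell with dexamethasone, with the median 0.07 above that of all probe sets. The same scaling gave 15 higher and 2 lower for incubated against fresh (median 0.47).

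Adaptor and ERK cascade genes also changed in both directions. Of 12 tested adaptor and ERK cascade genes, 5 rose and 7 fell in incubated against fresh arrays (median -0.23, and 0.09 with hybridization-control scaling). Over all genes, 76.8% were called there, 36.0% as higher and 40.7% as lower. The adaptor gene Grb2 (1.02 ± 0.063) and the GTPase gene Nras (1.16 ± 0.064) rose, and Plcg1 (-1.17 ± 0.071), a phospholipase recruited by the receptor, and the scaffold gene Ksr1 (-1.22 ± 0.077) fell, with adjusted p at most 1.61e-08. With dexamethasone against incubated, 2 rose and 4 fell (median 0.03), near the 50.9% of all genes called. Ksr1 fell by 0.82 ± 0.077 (adjusted p = 3.36e-06), Map2k1, the MEK1 gene, fell by 0.40 ± 0.095 (adjusted p = 0.00385), Sos1 fell by 0.21 ± 0.063 (adjusted p = 0.0155) and Plcg1 rose by 0.24 ± 0.071 (adjusted p = 0.0128; -0.23 with hybridization-control scaling). Under that scaling, 0 of the 12 rose and 11 fell.

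Of 16 receptor traffic genes, 9 rose and 2 fell in incubated against fresh arrays (median 0.28), where 76.8% of all genes were called, and hybridization-control scaling gave 13 higher and 0 lower (median 0.62). The genes that rose included Rin1 (at least 3.23-fold higher), Ehd1 (1.56 ± 0.052), Rab11a (1.08 ± 0.046) and Cd2ap (0.50 ± 0.046), with adjusted p at most 4.72e-07. With dexamethasone, 4 rose and 7 fell (median -0.05), where 50.9% of all genes were called. Sh3kbp1, the gene of an adaptor that links the ubiquitin ligase Cbl to endocytosis, fell by 1.18 ± 0.11 (adjusted p = 2.98e-06) and the late endosome gene Rab7 fell by 0.31 ± 0.052 (adjusted p = 3.23e-04). Rin1 rose by 0.76 ± 0.14 (adjusted p = 6.89e-04) and Anxa1, a substrate of the receptor, rose by 0.32 ± 0.052 (adjusted p = 2.64e-04; -0.17 with hybridization-control scaling). Under that scaling, 0 of the 16 rose and 14 fell.

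**Figure D5:**
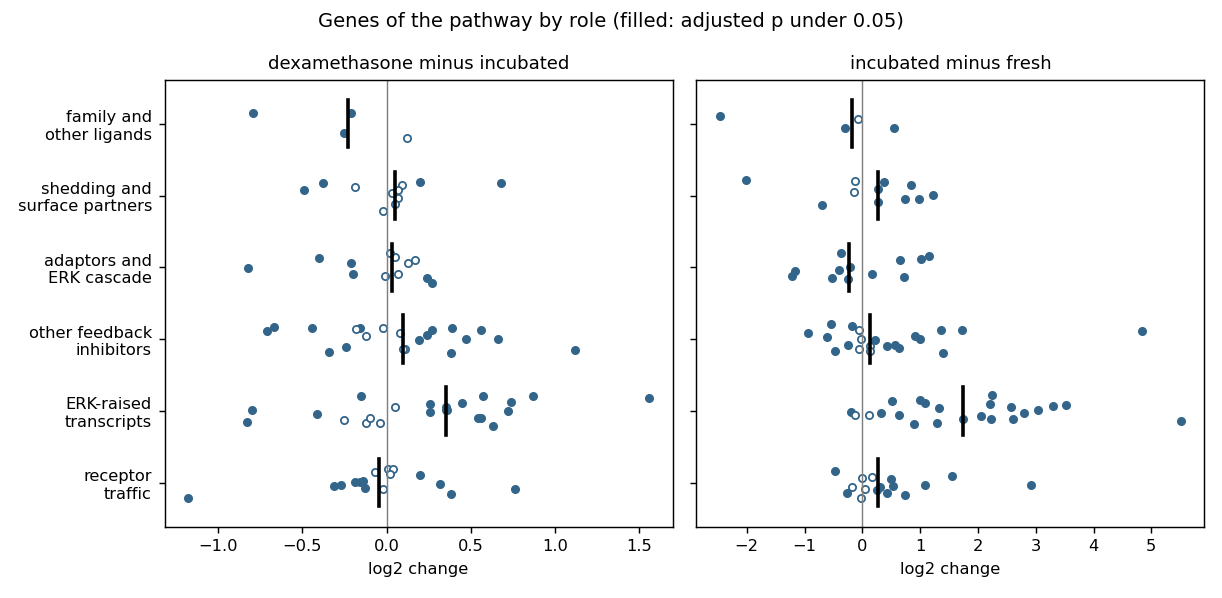
Log2 change of each tested gene in 6 lists of the pathway, with dexamethasone minus incubated on the left and incubated minus fresh on the right, on different scales; filled points passed the test and black bars are list medians. The list of transcripts raised by ERK signalling has medians of 0.35 on the left and 1.75 on the right, and all 6 lists have points on both sides of 0.

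The genes whose pair of changes lay closest to each member were found among 10238 genes by Euclidean distance over incubated minus fresh and dexamethasone minus incubated. The points are 3 group means, and the incubated group enters both axes. For Hbegf they were Osmr (2.71 and 0.36, distance 0.0825), the oncostatin M receptor gene, and Sdcbp2 (2.85 and 0.23, distance 0.148), the syntenin-2 gene. The signal of Sdcbp2 averaged 274 in dexamethasone, 229 in incubated and 3.93 in fresh arrays, so its change in culture and its distance rest on the pseudocount of 32. For Errfi1 they were Frmd6 (-0.08 and 0.34) and Taok1 (-0.09 and 0.37), at distances of 0.0112 and 0.0133. For Tgfa they were Stk35 and Ano10, at 0.00797 and 0.0107, and for Egfr 1424932_at Abca7 and Reep4, at 0.00335 and 0.00512. The nearest genes to Hbegf were therefore further away than those of the other members.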

How the data were processed

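Per the labels' protocols, RNA was amplified by repeated in vitro transcription. The authors deposited 1 linear intensity per probe set, scaled on each array to a target of 500, per the labels' description. The summarising software is not given in the sources used here. Detection calls were not used. Of 45101 probe sets, 64 were controls, 34945 had 1 gene symbol, 932 several and 9160 none. For 204 the gene ID was not in the reference and the symbol was kept. List genes without a matching probe set are not analysed here.

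Signals were analysed as log2(signal + 32), so fold changes of low signals are understated. Probe sets reaching 200 on at least 3 of 9 arrays were fitted with 1 mean per group in limma 3.58.1 (R 4.3.3; eBayes with an intensity trend, Benjamini-Hochberg over all of them, called at an adjusted p under 0.05). A gene was represented by its tested probe set with the highest mean. Where 1 group lay wholly under 200, the fold is the other group's geometric mean over 200. Tables used pandas 2.3.3, NumPy 2.4.6, SciPy 1.17.1, Python 3.11.15 and matplotlib 3.10.9. Named genes were all members, the 2 genes nearest each member, up to 4 genes per list and comparison with the smallest adjusted p, and Fkbp5, Tsc22d3 and Per1. Erbb2, Sgk1 and the cell type markers fell outside that rule, and were picked with their values known. Members and lists were chosen with earlier results of these data known. The alternatives tried were other scalings, pseudocounts, filters, no trend, 2 groups alone, the replicate block and leaving out each array. The arrays of a group may be technical repeats, so the number of biological samples limits the precision.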

Additional observations from a re-analysis of the deposited data

How the results depend on the processing

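The number of called probe sets (14213 for incubated against fresh, 9936 for dexamethasone against incubated and 14419 for dexamethasone against fresh) stayed within 1.5 times under every alternative run. Leaving out 1 array gave 13556 to 13647, 8822 to 9184 and 13837 to 13930. The share of called probe sets that were higher was 46.6%, 51.5% and 49.6%, and with hybridization-control scaling 69.1%, 9.13% and 39.3%. The letters A to C did not pair the arrays: the correlations of same-lettered deviations between groups ran from -0.0617 to 0.164. With the replicate block the counts were 14130, 9811 and 14369, and no member changed its call.

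Leaving out 1 array gave, with dexamethasone against incubated, 0.33 to 0.37 for Errfi1, 0.33 to 0.42 for Hbegf, 0.23 to 0.28 for Tgfa and 0.13 to 0.33 for Egfr 1424932_at. For incubated against fresh it gave -0.10 to -0.06, 2.76 to 2.82, -0.17 to -0.07 and -0.07 to 0.13. Quantile normalization called Errfi1 lower in culture (-0.20), and turned the sign of Errfi1 1419816_s_at (0.17) and Stk35 (0.15) there and of Hbegf 1418349_at (0.01) with dexamethasone, none of those 3 past the test. Hybridization-control scaling turned the most signs. For incubated against fresh it gave 0.25 for Errfi1, 0.19 for its second probe set, 0.20 for Tgfa, 0.10 for Egfr 1435888_at, 0.18 for Ano10, 0.04 for Erbb3, 0.25 for Frmd6 and Taok1 and 0.15 for Stk35, and it called Egfr 1424932_at higher (0.38). With dexamethasone against incubated it gave -0.14 and -0.30 for the Errfi1 probe sets, -0.12 for Hbegf 1418350_at, Osmr and Taok1, -0.23 for Tgfa, Plcg1 and Egfr 1435888_at, -0.27 for Egfr 1424932_at and Abca7, -0.22 for Ano10 and Reep4, -0.17 for Anxa1, -0.14 for Frmd6, -0.28 for Rhbdf1, -0.21 for Sdcbp2 and -0.16 for Stk35. Against fresh, dexamethasone gave -0.13 for Egfr 1435888_at, -0.11 for Errfi1 1419816_s_at and -0.03 for Tgfa. Relative to the shifted median these changes moved little, since 1 factor per array sets the whole shift.

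Leaving out 1 array also turned signs near 0. With dexamethasone against incubated the range was -0.06 to 0.05 for Hbegf 1418349_at and -0.16 to 0.05 for Egfr 1460420_a_at. Against fresh, dexamethasone ran from -0.07 to 0.13 for Egfr 1435888_at and from -0.02 to 0.09 for Errfi1 1419816_s_at. For Reep4, incubated against fresh ran from -0.03 to 0.20. Signals under 200, as for Ereg, give no fold, and with dexamethasone against incubated even the member changes of 0.26 to 0.36 turned sign with hybridization-control scaling.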
